A study of Mus musculus with 35 samples.

Results

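Gene expression in EB-3 and RF8, the 2 mouse embryonic stem (ES) cell lines of the study, was compared on 1 array each, and the arrays of 30 induced pluripotent stem (iPS) clones were placed between them. The members were taken from the sample labels alone and make up 2 of the 35 arrays. EB-3 and RF8 are ES cell lines with no factor or reporter named in their labels. EB3 descends from E14tg2a, an ES cell line that lacks a working Hprt gene, and carries a drug resistance cassette at its Oct3/4 (Pou5f1) locus. RF8 is another established line. For the culture of the ES cells the methods point to an earlier protocol, named for the iPS cells as well, and whether feeder cells were under them is not given in the sources used here. Neither line had a second array, so differences between them carry no error and no test.

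The 30 clones came from 6-week-old mice with a Nanog-GFP-Puro reporter, and formed 6 groups of 5. PaS cells are bone marrow mesenchymal stem cells sorted as CD45-, Ter119-, PDGFRa+ and Sca-1+, OP cells are osteo-progenitors sorted as negative for all of these markers, and TTF are tail tip fibroblasts. Each source was infected with retroviruses for Oct3/4, Sox2 and Klf4 with c-Myc (4F) or without it (3F). The clones grew on feeder layers of mitomycin-treated SNL cells, a fibroblast line, with LIF. The uninfected PaS, OP and TTF cells gave 1 array each, called the primary cells below.

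Mouse ES cells in LIF hold the naive state of the early epiblast. Oct3/4, Sox2 and Nanog form its core, and a wider set of factors (Klf2, Klf4, Klf5, Esrrb, Tbx3, Tcfcp2l1, Nr5a2 and Nr0b1) keeps the cells from moving on towards the primed epiblast and the germ layers. ES cells carry little MHC class I and respond weakly to interferon. Fibroblasts are marked by collagens, contractile proteins and secreted proteases and chemokines, and they accompany ES or iPS cells wherever feeder layers are used.

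The arrays were not processed together. RF8 was alone on its slide, with its own scanner model and session, and had 71.3% of its probes well above background, against 64.3% for EB-3 and 56.6% to 65.7% (median 62.9%) for the clones. EB-3 shared a slide and a session with the 3 primary cell arrays, and the clones lay on 8 other slides of 1 further session. Line and session cannot be told apart. Levels are given as log2 of the signal relative to the 75th percentile of its own array, so that 0 is the signal of that percentile. Both ES arrays carried the ES cell markers. The median level of the 19 ES cell markers was 3.87 on EB-3 and 3.04 on RF8, above the range of the clones (-2.30 to 2.58) and of the primary cells (-5.36 to -4.33).

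Of 27962 gene names, 20111 were well above background on at least 1 ES array. Of these, 7056 (35.1%) lay at least 2-fold apart, 2530 (12.6%) higher on EB-3 and 4526 (22.5%) higher on RF8. EB-3 thus had 35.9% of the differences. Its share was 52.1% after quantile normalization, 47.3% after normexp background correction and 46.7% after scaling to the median. With cyclic loess it was 33.0%, with the log2 values of the authors 33.1% and with the probes of a gene averaged 31.8%. Over the genes well above background on both arrays it was 43.6%, so this split depended on the processing and the filter. The median difference (EB-3 minus RF8) over all genes measured was -0.11 on the log2 scale, 0.00 after quantile normalization, 0.06 after median scaling and -0.20 after cyclic loess. The differences also moved with brightness. The median for the genes in the second dimmest of 10 bins was -0.52, and that for the brightest bin was 0.50. At the far end the arrays were unequal, with 353 genes at least 16-fold higher on RF8 and 29 on EB-3.

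**Figure D1:**
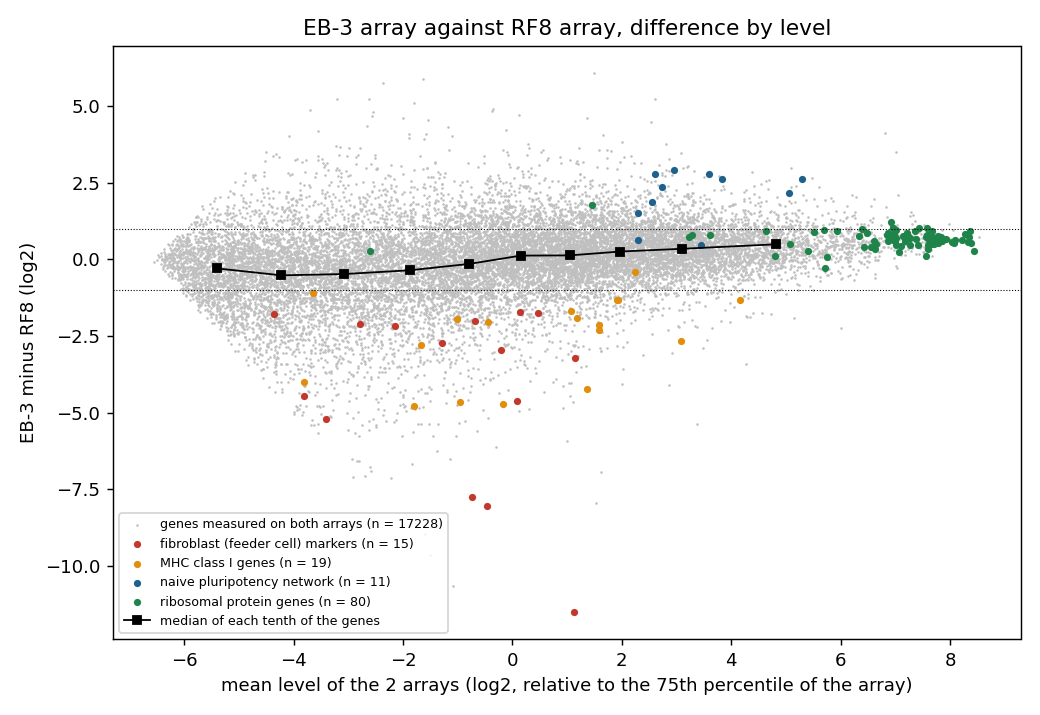
Difference between the arrays (EB-3 minus RF8, log2) against the mean level of both arrays (log2, relative to the 75th percentile) for the 17228 genes measured on both, with 4 gene lists in colour and dotted lines at 2-fold. The black squares, the medians of 10 equal bins of genes, pass from below 0 for dim genes to 0.50 for the brightest, while fibroblast and MHC class I genes lie below 0 and naive pluripotency genes above it at the same levels as other genes.

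Pairs of clones from the same group gave a scale for 1 array against 1 array. The 60 pairs differed at least 2-fold in 554 to 6524 genes (median 2627), and all 60 differed in fewer genes than the ES pair. As a share of the genes measured in each pair, 58 of 60 lay below the ES pair, with a median of 14.3% and a range of 3.06% to 35.6%. The 2 pairs above it both held 4F-OP-iPS 2, and without this clone the highest share was 27.9%. Pairs on 1 slide had a median of 9.63% (26 pairs) and pairs on different slides 17.0%. The ES pair lay on different slides and in different sessions, and no clone pair did the latter.

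**Figure D2:**
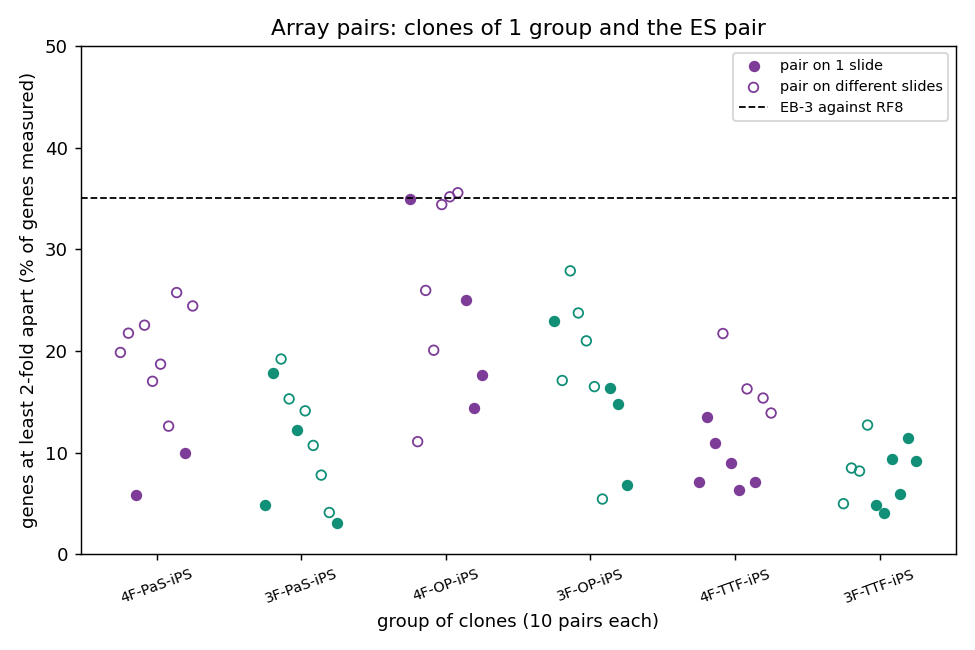
Share of genes at least 2-fold apart (% of the genes measured in the pair) for the 10 pairs of clones in each of the 6 groups, with filled points for pairs on 1 slide and open points for pairs on different slides. The dashed line is EB-3 against RF8 at 35.1%, and only 2 pairs of 4F-OP-iPS clones lie above it.

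The naive pluripotency genes were higher on EB-3. Of the 11 measured, 9 were at least 2-fold higher on EB-3 (against 12.6% of all genes) and none on RF8, with a median difference of 2.35 on the log2 scale, which stayed between 1.88 and 2.42 under the alternatives tried. Klf5, a Krüppel-like factor of the naive network, was at 4.41 on EB-3 and 1.51 on RF8, 7.48-fold apart. Tbx3, a T-box factor of the same network, was 6.99-fold higher on EB-3 (4.01 and 1.20) and Nr0b1 (Dax1), an orphan receptor, 6.92-fold (4.99 and 2.20). Klf4 and Esrrb were each 6.16-fold higher, Tcfcp2l1 5.10-fold, Klf2 4.53-fold, Nr5a2 3.67-fold and Mbd3, a subunit of the NuRD complex, 2.87-fold. Stat3, which carries the LIF signal, differed 1.54-fold and Tcf3 1.37-fold, both within the 2-fold limit. All genes of this list with more than 1 probe had the same direction on each probe, but sizes differed. The brighter Klf2 probe on EB-3 differed by 0.86 and the other by 2.18.

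Among the 4 core factors the gap was smaller and uneven. Their median difference was 1.15, and it ran from 0.80 to 1.19 under the alternatives. Oct3/4 (Pou5f1) was 7.39-fold higher on EB-3 (4.76 and 1.88) and Nanog 3.15-fold (4.38 and 2.72). Sall4 differed 1.55-fold and Sox2 by 0.13 on the log2 scale, with Sox2 at 3.84 on EB-3 and 3.71 on RF8. Sox2 thus stood nearly level on arrays that were far apart for Oct3/4. Whether the probes for Oct3/4, Sox2, Klf4 and c-Myc also read retroviral transcripts in the clones was not tested.

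The wider ES cell markers followed the same direction. Of 19, 12 were at least 2-fold higher on EB-3, against 12.6% of all genes, and 1 on RF8, with a median of 1.20. Under the alternatives 9 to 13 were higher on EB-3, and the median ran from 0.89 to 1.26. Tcl1, a coactivator of Akt, was 11.8-fold higher on EB-3 (3.36 and -0.20) and Utf1, a chromatin factor of undifferentiated cells, 11.7-fold (3.57 and 0.02). Dnmt3l, the partner of the de novo DNA methyltransferases, was 5.93-fold higher. Dppa3 (Stella), a maternal factor of oocyte, zygote and germ cells, went the other way, at -0.97 on EB-3 and 3.05 on RF8, 16.2-fold apart. The clones spanned both arrays for Dppa3, from -8.32 to 3.07 with a median of 0.98. Of the 9 genes measured that mark the 2-cell-like state, 3 were higher on EB-3 and 2 on RF8, led by Tcstv1 (12.6-fold) and Tcstv3 (12.0-fold) on EB-3 and by D5Ertd577e (at least 14.4-fold) on RF8. The count on RF8 was near the 22.5% of all genes.

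The fibroblast markers set the ES arrays furthest apart. All 26 measured were at least 2-fold higher on RF8 (against 22.5% of all genes), with a median difference of -4.45, and 11 of these were bounds, since EB-3 was not well above background. Under the other settings 23 to 26 stayed past 2-fold, and the median ran from -5.19 to -2.37. S100a4, a calcium-binding protein of fibroblasts and motile cells, was at -4.63 on EB-3, 6.88 on RF8, 5.21 to 8.12 in the clones, 8.49 in primary PaS cells, 8.51 in OP cells and 8.86 in TTF. EB-3 stood 2928-fold below RF8 and alone below all 34 other arrays. Col1a2 and Col1a1, the chains of type I collagen, were 264-fold and 215-fold higher on RF8, and the collagen-binding proteoglycan Dcn at least 368-fold. The summed linear signal of the list (in multiples of the 75th percentile) was 3.49 on EB-3, 171 on RF8, 103 to 453 in the clones and 835 to 2051 in the primary cells. The part of this signal in the pluripotency differences above was not tested. In bulk RNA, fewer cells of a type and less RNA per cell cannot be told apart.

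The S100a4 probe lies at chr3:90736122-90736182 (mm7, the build of the array annotation). The 250 bases before the start of the S100a4 gene are shown because S100a4 had the largest difference of all genes measured on both arrays. The sequence is from RefSeq (GRCm38.p6, chr3:90603520-90603769, plus strand), with the TATA motif TATAAA in capitals. The motif was found once, and 12.4% of 32851 promoters of this length hold it on either strand.
S100a4: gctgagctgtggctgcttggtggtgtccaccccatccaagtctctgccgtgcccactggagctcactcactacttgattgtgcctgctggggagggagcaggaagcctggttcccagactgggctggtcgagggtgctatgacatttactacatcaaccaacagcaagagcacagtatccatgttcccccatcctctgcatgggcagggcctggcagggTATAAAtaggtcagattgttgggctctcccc

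**Figure D3:**
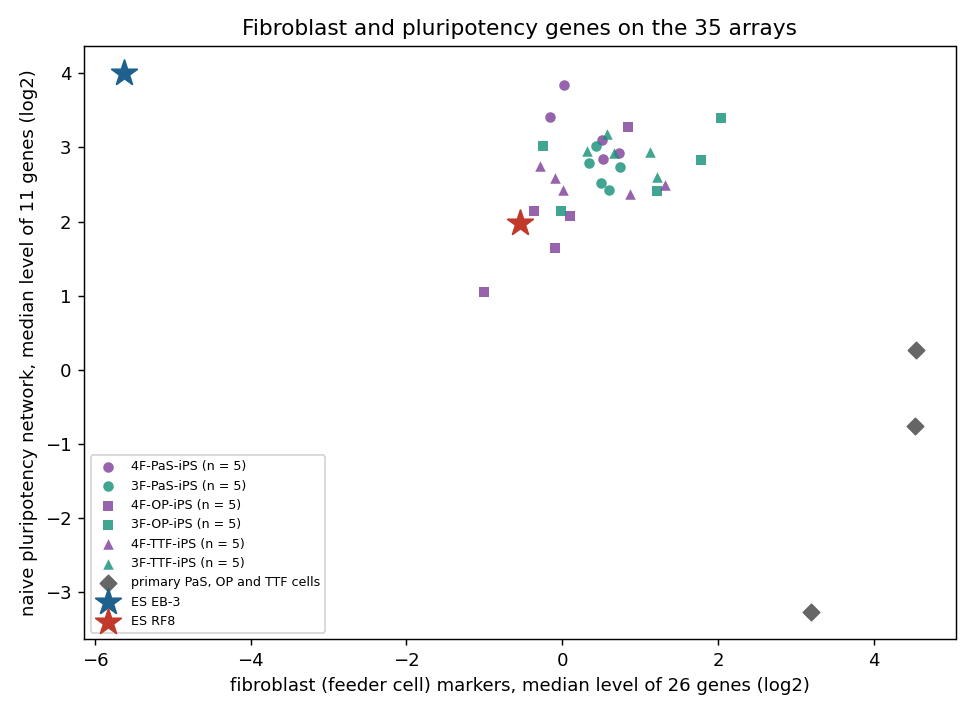
Median level (log2, relative to the 75th percentile) of the 11 naive pluripotency genes against that of the 26 fibroblast markers on each of the 35 arrays. EB-3 stands alone at -5.63 on the fibroblast axis, RF8 at -0.54 lies at the edge of the clones, which reach 2.04, and the primary cells lie at 3.19 to 4.54.

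Other genes with the largest differences on the RF8 side included Tm4sf1 (1623-fold), a membrane protein of mesenchymal and endothelial cells, Cav1 (810-fold), which forms caveolae, and Ccl2 (423-fold), a chemokine. Mgst2 was 139-fold and Igfbp6, an IGF-binding protein, 136-fold higher. Among genes not above background on EB-3 the largest bounds were those of Thumpd1 (described below), Sdpr (at least 816-fold), a caveolar protein, the proliferins Mrpplf4 (at least 678-fold) and Plf2 (at least 660-fold), and the hyaluronan receptor Cd44 (at least 388-fold). The proliferins are near-identical copies that the probes may not separate. For Cav1 the clones (2.24 to 4.28) surrounded RF8 (3.33), and all lay far above EB-3 (-6.33). Cd44 was higher than RF8 (2.01) in all 30 clones (2.20 to 4.86).

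Contractile and immune genes leaned the same way, and matrix genes less so. Of 24 contractile and cytoskeletal genes 16 were higher on RF8, against 22.5% of all genes, and none on EB-3 (median -2.54). The mechanosensitive repressor Ankrd1 was at -6.10 on EB-3, 0.49 on RF8 and 1.28 to 4.79 in the clones. Thbs1 (thrombospondin) was 50.9-fold and S100a6 41.0-fold higher on RF8. Of 23 matrix, integrin and laminin genes, 10 were higher on RF8, against 22.5% of all genes, and 3 on EB-3, near the 12.6% of all genes (median -0.46). Timp2 was at -1.97 on EB-3 and 3.96 on RF8. The immediate early genes had 9 of 19 higher on RF8, against 22.5% of all genes, led by Jun (33.5-fold) and Ier5 (11.4-fold), and none on EB-3.

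The MHC class I pathway had 17 of 19 genes higher on RF8, against 22.5% of all genes, and none on EB-3. The median was -2.05, and all 19 were measured on both arrays. B2m, the invariant light chain, was at -0.75 on EB-3, 3.47 on RF8 and 3.27 to 5.11 in the clones. H2-T22 (27.3-fold) and H2-T10 (26.3-fold) are non-classical class I genes, close relatives whose probes may share targets. Psmb8, a subunit of the immunoproteasome, was 25.3-fold higher on RF8 (1.38) and in no clone reached the RF8 level (-5.76 to 0.72). Of 27 interferon-stimulated genes, 13 were higher on RF8, against 22.5% of all genes, and 4 on EB-3, near the 12.6% of all genes. Mx2 (at least 67.2-fold), Ifit3 (at least 30.3-fold) and Isg15 (22.9-fold) were higher on RF8, while Oas2 was 8.41-fold higher on EB-3. The median level of the MHC class I list lay above both ES arrays in 28 clones, and that of the interferon list in 29.

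**Figure D4:**
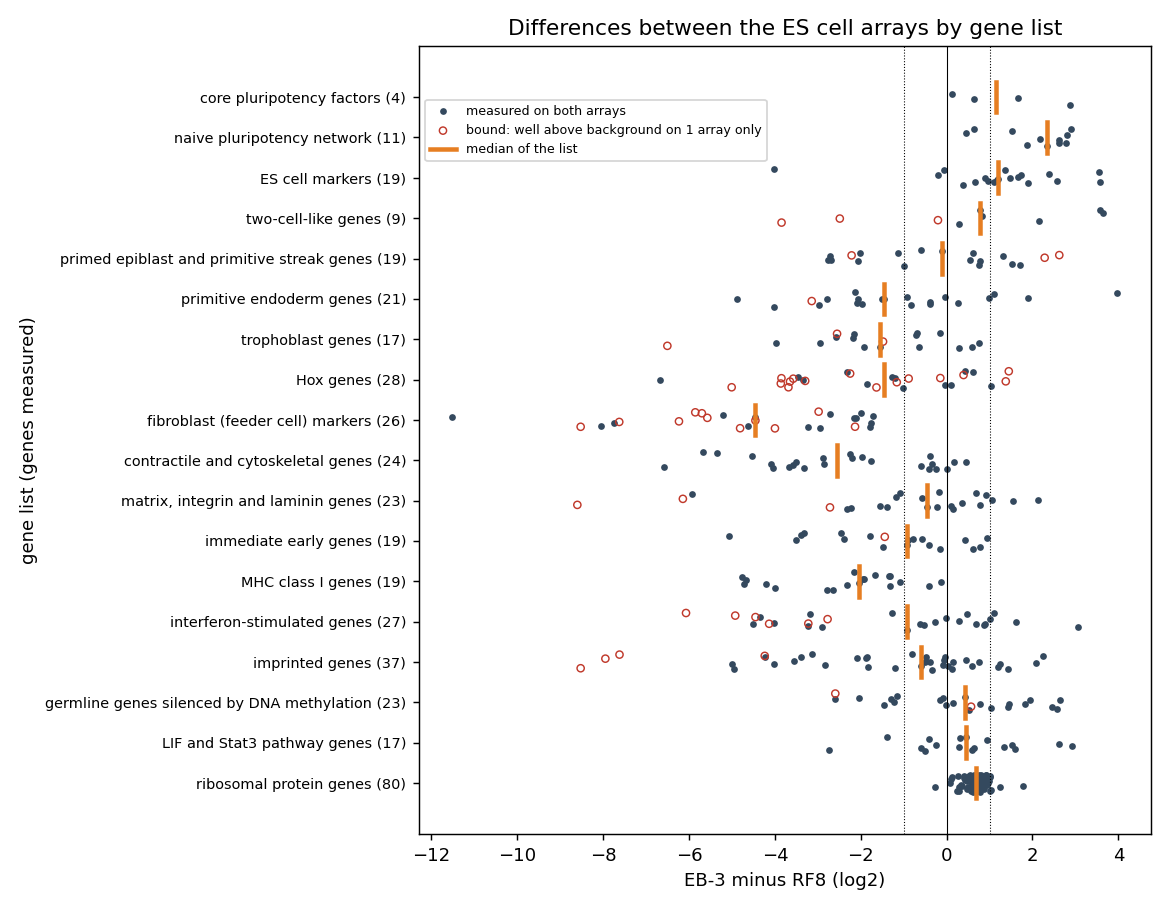
Differences (EB-3 minus RF8, log2) of the genes measured in 18 gene lists, with bounds as open circles, list medians as orange bars and dotted lines at 2-fold. The naive list has its median at 2.35 and the fibroblast list at -4.45, while the germline and primed lists spread over both sides.

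The genes of other lineages were mostly low to moderate on both arrays. Primitive endoderm, the extraembryonic sister of the epiblast, had 11 of 21 genes higher on RF8 and 3 on EB-3. Over all genes the shares were 22.5% and 12.6%, and the count on EB-3 was near its share. The median was -1.45, and it was -0.89 with normexp, -0.82 with all probes averaged and -1.74 with loess. Plat was 29.4-fold and the Wnt inhibitor Dkk1 16.3-fold higher on RF8, and Stra6, a retinol transporter, was 15.7-fold higher on EB-3. The primitive endoderm list was higher than both ES arrays in all 30 clones, with a median level of 0.75 to 3.75 in the clones, -2.79 on EB-3 and -1.59 on RF8. Of 17 trophoblast genes, 10 were higher on RF8, against 22.5% of all genes, and none on EB-3. Among these 10 were Ly6a (at least 90.8-fold), which also encodes Sca-1, and the keratins Krt19 (15.8-fold) and Krt7 (7.71-fold). Both lists hold genes that fibroblasts or epithelia also express.

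Of 14 neural progenitor genes, 6 were higher on RF8 and 2 on EB-3 (median -0.72, from -1.29 to -0.15 under the alternatives). Of 16 early mesoderm and endothelial genes, 6 were higher on RF8 and 1 on EB-3 (median -0.49, or 0.01 with quantile normalization). Over all genes 22.5% were higher on RF8. The counts on EB-3 were near the 12.6% of all genes, and genes of low level had medians on the RF8 side in general, such as -0.52 over the second lowest of 10 equal bins of level. Fabp7, a fatty acid carrier of radial glia, was at least 127-fold higher on RF8 (0.40), and Zic1 (23.8-fold), Sox11 (-2.41 and 0.65) and Nes (-0.58 and 2.31) were also higher there. Fgf8 (-2.06 and 0.71), T (-5.82 and -3.10) and Wnt3 (-4.34 and -1.65), genes of the primitive streak, were higher on RF8, and Cdx1, not well above background on RF8, was at least 6.17-fold higher on EB-3 (-3.93). The primed epiblast and streak list as a whole was even, with 5 of 19 higher on EB-3 and 7 on RF8 (12.6% and 22.5% of all genes), and its median of -0.10 turned sign with normexp (0.02). Among signalling genes, Inhbb, an activin subunit, was higher on EB-3 (3.68 and -0.95), and Wnt8a (-4.03 and 0.77) on RF8. Fosl1 was higher on RF8 (-5.32 and -2.57) and Pim3, a kinase induced by Stat3, on EB-3 (4.43 and 1.51).

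Hox genes, the homeobox clusters that pattern the body axis, had 18 of 28 higher on RF8, against 22.5% of all genes, and 3 on EB-3, near the 12.6% of all genes. Hoxb2 was at -5.16 on EB-3, 1.51 on RF8 and -3.42 to 1.15 in the clones, so RF8 stood above all clones. For Hoxa2 (at least 32.1-fold) and Hoxa4 (at least 14.5-fold) the clones reached past RF8 on 7 and 10 arrays. Hoxb1 was at least 14.4-fold higher on RF8 (-2.75) and at or below -5.94 in all clones. Of the 28 genes, 12 were well above background on RF8 only and 3 on EB-3 only. The counts depended on the processing, with 11 to 20 of the list higher on RF8 and 0 to 7 on EB-3, and the median of -1.46 ran from -2.35 to -0.69.

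Imprinted genes, expressed from 1 parental copy, had 17 of 37 higher on RF8, against 22.5% of all genes, and 5 on EB-3, near the 12.6% of all genes. Igf2, the fetal growth factor, and its neighbour H19 were at -2.35 and -5.53 on EB-3 and at 2.61 and -0.53 on RF8, with clone medians of 4.47 and 5.14. Plagl1 (at least 247-fold), Nnat (at least 197-fold), Magel2 (18.7-fold) and Dlk1 (16.2-fold) were also higher on RF8. Magel2 was at 0.44 on RF8 and at -1.66 or less in all clones, whereas Dlk1 was higher than RF8 (3.08) in all 30. At the Dlk1-Dio3 cluster the directions differed by gene, with Dio3 (4.27-fold) higher on EB-3 and Mirg (3.65-fold) on RF8. The 2 Rian probes disagreed, one higher on EB-3 by 2.24 and the other on RF8 by 1.72. Dio3, Mirg and Rian were named after their values were seen.

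Germline genes that DNA methylation silences were split, with 8 of 23 higher on EB-3 and 7 on RF8 (12.6% and 22.5% of all genes). Sycp3, of the synaptonemal complex, was 6.24-fold higher on EB-3 (1.35 and -1.29), and Tdrkh 6.08-fold (-1.13 and 1.47) and Brdt at least 6.03-fold higher on RF8. Cxxc6 (Tet1) was higher on EB-3 (1.65 and -0.14). The cell junction gene Cldn4, a tight junction protein, had the largest difference on the EB-3 side of all genes measured on both arrays, at 1.30 on EB-3, -4.58 on RF8 and -2.70 to 2.21 in the clones, 59.1-fold. Cdh2, N-cadherin, was higher on RF8 (-3.18 and 0.69).

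Of 80 ribosomal protein genes 6 were at least 2-fold higher on EB-3 and none on RF8, with a median of 0.67, and of 79 oxidative phosphorylation subunits 11 and none, with a median of 0.65. Neither count stood out against the 12.6% of all genes higher on EB-3. These genes are among the brightest, and after cyclic loess, which removes the trend with brightness, the medians were -0.01 and 0.10. Glycolysis had 5 of 21 genes higher on EB-3 and 1 on RF8, against 12.6% and 22.5% of all genes, with a median of 0.70. After loess 3 were higher on EB-3 and 2 on RF8, with a median of 0.13. Single genes stood out, such as Cox6b2, a cytochrome oxidase subunit of testis (8.97-fold), Pfkl (3.60-fold) and Ldhb (3.34-fold) on EB-3. The small heat shock protein Hspb1 was higher on EB-3 (6.58 and 3.59), but the difference was -0.86 on the log2 scale when all its probes were averaged. Of 24 targets of Atf4, the factor of the amino acid response, 10 were higher on EB-3 and 5 on RF8, with Cth (6.93-fold) on EB-3 and Ddit4 (2.55 and 5.98) on RF8. After loess 7 were higher on EB-3, and the median fell from 0.48 to 0.10, while the count on RF8 was near the 22.5% of all genes. Hypoxia genes had 5 of 19 higher on RF8, led by Adm (18.2-fold), and 2 on EB-3, near the shares of all genes (22.5% and 12.6%). The cholesterol list had 7 of 24 higher on RF8 and none on EB-3, the largest that of Cyp51 (2.45-fold), with the count on RF8 again near 22.5%.

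Some genes put a single ES array apart from all the others. Hprt1 (Hprt), the purine salvage enzyme, was at -2.44 on EB-3, 5.51 on RF8, 4.64 to 6.10 in the clones and 5.19, 5.66 and 6.51 in primary PaS, OP and TTF cells. EB-3 was 249-fold below RF8, and below every other array by at least 7.09 on the log2 scale. The Hprt1 probe lies at chrX:48113832-48113891 (mm7). The promoter is shown because EB3 descends from an Hprt-deficient line. It is from RefSeq (GRCm38.p6, chrX:52987828-52988077, plus strand), with GGGCGG, the core of the GC box, in capitals. The motif was found 2 times, and 32.7% of 32851 promoters of this length hold it on either strand.
Hprt: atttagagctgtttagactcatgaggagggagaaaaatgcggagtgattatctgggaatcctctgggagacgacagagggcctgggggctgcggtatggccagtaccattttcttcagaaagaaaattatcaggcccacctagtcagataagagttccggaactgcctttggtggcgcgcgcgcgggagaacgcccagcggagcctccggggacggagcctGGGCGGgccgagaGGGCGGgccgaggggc

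Thumpd1 was at -8.84 on EB-3, not well above background, 3.50 on RF8 and 2.04 to 2.96 in the clones, at least 1092-fold lower on EB-3 than on RF8. The second, dimmer Thumpd1 probe gave -4.09 on EB-3 and -2.84 on RF8, both well above background, so the probes disagree on the size. Slc4a7, a bicarbonate transporter, was at 5.09 on RF8, -1.85 on EB-3 and between -2.73 and -1.42 on all others, so here RF8 was the array that stood apart, by 6.51 above the next.

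On the EB-3 side, Pigt, of the GPI transamidase, was at 8.88 on EB-3, 4.74 on RF8 and 9.25 to 9.96 in the clones, and Lars2, the mitochondrial leucyl-tRNA synthetase, at 8.77, 5.25 and 9.05 to 9.60. The array annotation places this Pigt probe on chromosome 17, so what it reads is in doubt, and on the second Pigt probe (-1.31 on EB-3 and -3.82 on RF8) the clone median of -2.40 was below EB-3. RF8 lay below all 34 other arrays for both, by 3.69 and 3.02. Mdfi, an inhibitor of MyoD family factors, was not well above background on RF8 and at least 57.7-fold higher on EB-3 (-0.71), which lay within the clones (-1.77 to -0.02). Kifc1, a kinesin of the mitotic spindle, was at 5.23 on EB-3, -0.02 on RF8 and 2.92 to 4.18 in the clones. Ipo7, an importin, was at 4.76, 0.29 and 2.45 to 3.58. For these 2 genes the clones thus lay between the ES arrays.

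Several other genes far higher on EB-3 were low in the clones too. Gpr83 (34.5-fold), Nkx6-3 (37.7-fold), a homeobox factor, Dnahc8 (26.1-fold), an axonemal dynein, and Fxyd4 (25.7-fold) had clone medians between -5.28 and -2.26. Dnahc8 was at 2.47 on EB-3, -2.23 on RF8 and below EB-3 in all 30 clones. Sept1 (53.9-fold), Napsa (30.2-fold), an aspartic protease, and Rshl3 (29.3-fold) had clone ranges that reached below both ES arrays. In total, EB-3 lay at least 2-fold above all 34 other arrays for 308 genes and below them for 1093, and RF8 above for 665 and below for 148. A single clone did so for 2 to 134 genes above (median 14.5) and 0 to 203 below (median 2.5), and the 3 primary arrays, like the ES arrays the single ones of their cell type, for 191 to 751 above and 277 to 554 below. All these counts were made over the 20111 genes measured on an ES array, 2456 through RF8 only and 427 through EB-3 only. Genes above background only in clones or primary cells were left out, so the ES arrays and the others are not on equal terms here.

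The question of where the clones lie had different answers by measure. By the root mean square log2 difference over the 17228 genes measured on both ES arrays, 29 of 30 clones were nearer to RF8 and 1 (4F-PaS-iPS 4) to EB-3. The distance was 1.46 to 2.15 (median 1.72) to EB-3 and 1.27 to 1.96 (median 1.49) to RF8. The ES arrays were 1.24 apart, and all 30 clones lay farther than this from each. No clone was nearer to EB-3 after normexp, after cyclic loess or over the genes at least 2-fold apart.

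Gene by gene the clones did not fall on 1 line. Of the 2530 genes higher on EB-3, the clone median lay above EB-3 for 388, between the arrays and nearer to EB-3 for 587, between them and nearer to RF8 for 752, and below RF8 for 803. Of the 4526 genes higher on RF8, the clone median lay above RF8 for 1527, nearer to RF8 for 989, nearer to EB-3 for 1054 and below EB-3 for 956. The naive network lay between the ES arrays in 28 clones, the ES cell markers below both in all 30, the core factors below both in 24 and the fibroblast markers above both in 29. Klf4 was nearer to EB-3 in 24 clones, and Klf2 in 30, but the Klf2 probes disagreed, since the second had a clone median of 4.31, below both EB-3 (6.67) and RF8 (5.81). In contrast, Nr5a2 lay below both ES arrays in all 30 and Esrrb in 25.

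A position was defined along the line from RF8 (0) to EB-3 (1), as the projection of each clone over the 5508 genes measured on both and at least 2-fold apart. The clones lay at 0.178 to 0.493, with a median of 0.246. Most of the distance from RF8 was off this line, 72.0% to 96.1% of the squared distance (median 92.5%). The position depended on genes that the primary cells also express. Of the 4526 genes higher on RF8, 25.6% were at least 2-fold higher in all 3 primary cells than the mean of the ES arrays, against 6.09% of those higher on EB-3 and 12.6% of all genes. Over those of them measured on both ES arrays every clone lay beyond RF8 (-0.384 to -0.059), and over the other genes higher on RF8 the clones lay at 0.396 to 0.765 (median 0.549). Over the genes higher on EB-3 the median was 0.317. Without the genes high in primary cells, a set chosen after seeing the data, the median position was 0.396 and the highest, in 4F-PaS-iPS 4, 0.681. The median was 0.279 with quantile normalization, 0.181 with normexp, 0.155 with cyclic loess and 0.118 over genes well above background in all clones as well.

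**Figure D5:**
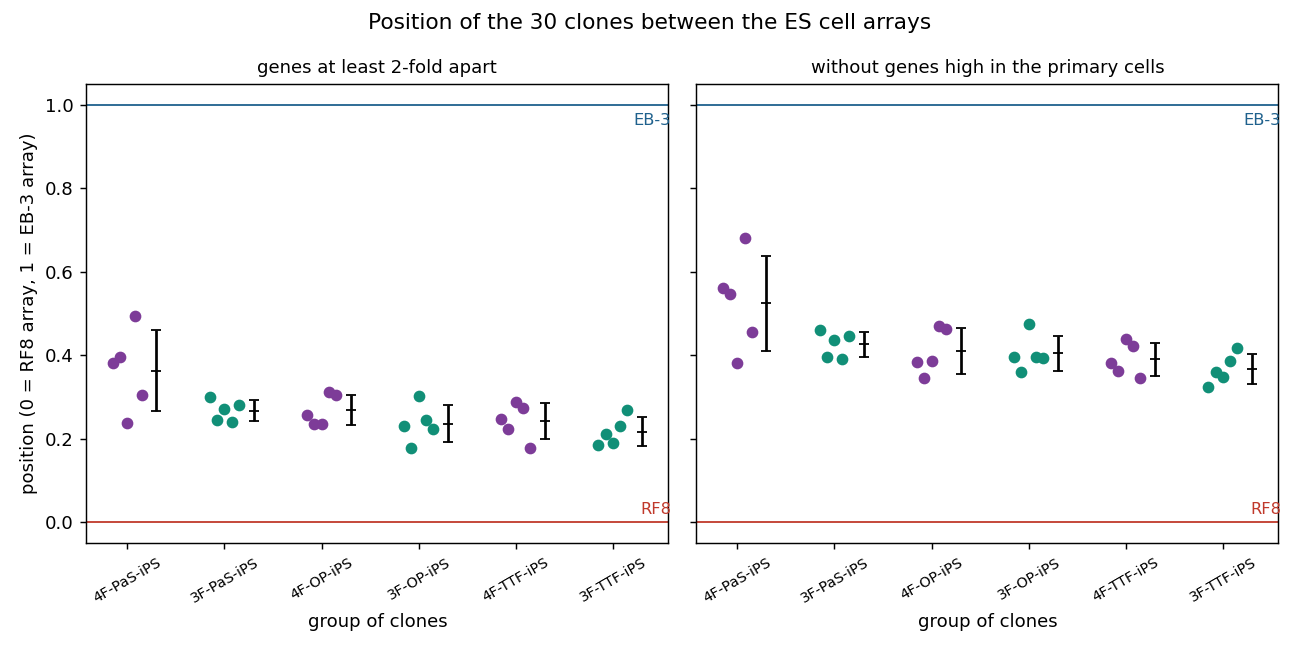
Position of each clone on the line from the RF8 array (0) to the EB-3 array (1), a ratio without unit, by group, with group mean and SD (n = 5) as bars, over all genes at least 2-fold apart and without those high in the primary cells. On the left the highest clone lies at 0.493, and on the right 3 clones of 4F-PaS-iPS lie at 0.546 to 0.681, above the other 27.

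The PaS clones had a mean position of 0.362 ± 0.0968 (SD, n = 5) with c-Myc and 0.267 ± 0.0245 without it. In OP clones the means were 0.269 ± 0.0370 with c-Myc and 0.236 ± 0.0443 without, and in TTF clones 0.242 ± 0.0435 and 0.217 ± 0.0342, again with n = 5 each. PaS clones lay nearer to EB-3 than TTF clones by 0.0853 (10 against 10, two-sided permutation test, p = 0.00442, adjusted over 6 comparisons p = 0.0265), with overlapping ranges. PaS against OP clones differed by 0.0625 (permutation p = 0.0440, adjusted p = 0.132) and OP against TTF clones by 0.0228 (permutation, adjusted p = 0.272). The difference of 3F minus 4F was -0.0950 for PaS (exact permutation test, adjusted p = 0.159), -0.0330 for OP (exact permutation, adjusted p = 0.262) and -0.0249 for TTF (exact permutation, adjusted p = 0.317), none past the threshold.

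The PaS against TTF call was narrow. Its adjusted permutation p was 0.0508 without 4F-PaS-iPS 1, 2 or 4, 0.0503 without 4F-TTF-iPS 5 and 0.0501 without 3F-TTF-iPS 1, and ran from 0.0125 to 0.0859 over all alternatives, with the same direction throughout. Without 4F-PaS-iPS 3 the 3F against 4F difference in PaS passed the threshold (-0.126, exact permutation, adjusted p = 0.0476). Slides were shared by few groups, and the permutations did not take slides into account. Most PaS and TTF clones lay on different slides, so for these source and slide cannot be told apart. The clones 4F-PaS-iPS 1 (0.380) and 4 (0.493) were the only arrays on their slide. They had the lowest shares of probes well above background (56.6% and 56.7%). The 1 slide with both PaS and TTF clones gave 0.0940, but set 3 clones of 3F-PaS-iPS against 4F-TTF-iPS 5, the lowest of all 30 clones (0.178). Within slides of 1 factor number, the 3 slides with PaS and OP clones gave 0.111, 0.0251 and 0.0561, and the 1 with OP and TTF clones 0.0708, with no test within a slide. For each source, 3F and 4F clones were on separate slides, so factor number and slide cannot be told apart. Nothing in the labels says whether clones of a group came from separate animals, and the p-values measure the spread between these clones only.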

How the data were processed

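Total RNA of 35 samples was labelled with Cy3 and hybridised to Agilent mouse oligo arrays (1 colour). The deposited files hold, per the file headers, scanner intensity values that Agilent Feature Extraction had background-subtracted (version 10.7.3.1 for EB-3, 9.5.3.1 for RF8 and 10.5.1.1 for the clones). The authors also deposited a table of log2 values, made with GeneSpring GX, which was used as an alternative only. Its columns had medians of -0.28 (EB-3) and -0.07 (RF8), it was centred per gene (r with the levels 0.40 and 0.23), and the base of that centring is not given in the sources used here. Its differences between the ES arrays correlated with those computed here at r = 0.999 over 41165 probes.

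Processed signals were taken as log2 and the 75th percentile of each array was subtracted. Spots flagged as not uniform or as outliers were left out, spots of 1 probe were averaged, and the probe with the highest mean over the 2 ES arrays and 30 clones stood for a gene. A gene was measured if well above background on 1 ES array or both. Where it was so on 1 only, the dim side was set to the higher of its own value and the lowest value well above background on that array, and the fold is a bound ("at least"). A difference counted at 2-fold, with no test between the ES arrays. The number of arrays limits the precision.

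Clone positions were compared by exact permutation tests (5 against 5, smallest possible p 0.00794) or permutation tests with 100000 resamples (10 against 10), two-sided, with Benjamini-Hochberg adjustment over 6 comparisons and a threshold of 0.05. Quantile, normexp (offset 50) and cyclic loess values were made with limma 3.58.1 in R 4.3.3, and the rest with python 3.11.15, pandas 2.3.3 and scipy 1.17.1. Steps were tested on simulated data. Named genes were the 10 with the largest difference on each side, the 5 largest bounds, up to 4 per list, and the 5 that most exceeded the range of the clones. Some of these are not reported here. The lists and members were chosen with earlier results of these data known. Gene names are those of the array design. Promoters came from RefSeq (GRCm38.p6), by symbol.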

Additional observations from a re-analysis of the deposited data

Results flagged for a closer look

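In 1 of 42 checks of a group of 5 clones, a single clone stood far from the other 4. The median level of the 4 core pluripotency factors was -1.96 in 4F-TTF-iPS 1 and 1.14 to 2.08 in the other 4F-TTF-iPS clones, against 4.11 on EB-3 and 2.79 on RF8. It was lower still in 4F-OP-iPS 1, 2 and 3 (down to -3.86), so the low level was not particular to this clone. The gap made up 0.767 of the range of the group, over Dixon's limit for 5 samples, which chance alone passes in about 1 of 20 groups. The position of this clone between RF8 and EB-3 was 0.247. Leaving it out moved the PaS against TTF difference in position from 0.0853 to 0.0873 (adjusted permutation p = 0.0316).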

How the results depend on the processing

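Of 177 named genes called, all kept their direction under quantile normalization, normexp, cyclic loess and the authors' table, and 175 when the probes of a gene were averaged. At least 2-fold apart remained 163 with quantile normalization, 163 with normexp, 164 with loess and 166 with averaged probes. The exceptions in direction were Fgfr2 (0.060 on the log2 scale) and Hspb1 (-0.86). The count of genes at least 2-fold apart was 4062 with normexp, 2142 of them higher on RF8, and stayed within 1.5 times of 7056 in the other alternatives at the 2-fold limit. At 4-fold it was 2342, 544 higher on EB-3 and 1798 on RF8. It was 5744 without genes high in the primary cells, 6290 without those where RF8 and 5712 without those where EB-3 lay outside all other arrays, settings added after seeing the data. Lists with a median past 2-fold numbered 10, but 6 with quantile normalization and 6 with normexp, and the medians of the primed epiblast, early mesoderm, blood, ribosomal protein, p53, heat shock and DNA methylation lists turned sign or reached 0 in at least 1 setting. Of the clones 0 were nearer to EB-3 with normexp, 0 with loess and 0 over genes at least 2-fold apart.

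The median position was 0.181 with normexp, 0.155 with loess, 0.191 over genes at least 4-fold apart, 0.118 over genes well above background in all clones and 0.396 without genes high in the primary cells. The PaS against TTF difference lost its call with quantile normalization (0.0736, adjusted permutation p = 0.0746), normexp (0.0796), loess (0.0761) and genes well above background in all clones (0.0712), and its adjusted p ran from 0.0125 to 0.0859 over all alternatives. With quantile normalization 3F lay above 4F by 0.00629 for OP and 0.0125 for TTF. The cause of these changes was not tested. With 1 clone left out, the differences ran from 0.0654 to 0.0938 for PaS against TTF, 0.0427 to 0.0711 for PaS against OP, 0.0162 to 0.0309 for OP against TTF, -0.126 to -0.0621, -0.0495 to -0.0188 and -0.0410 to -0.0134 for 3F against 4F in PaS, OP and TTF, and 0.245 to 0.247 for the median position.

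Clones of the same number were paired in 1 alternative, the replicate block. Their deviations correlated at -0.274 to 0.492, over 0.1 in 7 of 15 cases (4 of 5 for OP, 0.203 to 0.492, and 0.0211 for the other), so not every pair met the limit and the pairing was not used. With the block PaS against TTF remained 0.0853 (exact sign-flip test, adjusted p = 0.0820), and no other call changed. The line of the ES cells cannot be told apart from slide, session and scanner, signals near background limit the dim genes, and each line has 1 array.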

Other observations

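Genes of the sex chromosomes set both ES arrays apart from most clones. The Y-linked genes Ddx3y (1.08 on EB-3 and 0.44 on RF8) and Eif2s3y (2.74 and 2.33) were within 2-fold of each other on the ES arrays and higher there than in any of the 30 clones, 11 and 12 of which were well above background. Uty followed the same order (-3.39 and -4.22, at most -5.21 in the clones), and Jarid1d was higher on RF8 (-4.33), EB-3 not being well above background. Xist, the RNA that coats the inactive X, was at -6.11 on EB-3, not well above background on RF8 and above both in 24 clones (up to 3.29). Tsix, its antisense transcript, was 4.55-fold higher on EB-3 (-0.78 and -2.97), and the arrays were of labelled total RNA, for which the strand read was not tested. Eif2s3x (1.53-fold), Utx (1.25-fold) and Jarid1c (1.03-fold), which escape X inactivation, were within 2-fold.

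Of 14 D-type cyclins and CDK inhibitors, 4 were higher on EB-3, among them Ccnd3 (3.52-fold) and Ccnd2 (2.54-fold), and 2 on RF8 (median 0.29). Over all genes 12.6% were higher on EB-3 and 22.5% on RF8. After loess 1 gene of this list was higher on EB-3 and 3 on RF8, with a median of 0.15. Cdkn2b (p15) was at -2.56 on EB-3, 1.37 on RF8 and 2.13 at the clone median, and Cdkn2c (p18) at -3.48, -0.81 and -0.49. Of 30 DNA replication and mitosis genes 27 were within 2-fold, with Mcm2 (2.31-fold) and Cdc20 (2.01-fold) higher on EB-3 and Ccne2 (5.98-fold) on RF8. After loess Mcm2 (0.85 on the log2 scale) and Cdc20 (0.42) were within 2-fold, too. The median level of this list was lower than on both ES arrays in all 30 clones. Of 20 p53 and Ink4a/Arf genes 2 were higher on EB-3, among them Sesn2 (4.85-fold), and 4 on RF8. These counts were near the 12.6% and 22.5% of all genes. The median of 0.07 turned to -0.22 after loess, with 1 higher on EB-3 and 5 on RF8. Fas, a p53 target and death receptor, was at -5.39 on EB-3, -1.01 on RF8 and -0.00406 at the clone median. Of 16 clustered protocadherin genes measured, 9 were higher on RF8 and 1 on EB-3, against 22.5% and 12.6% of all genes. Over the other settings 4 to 13 were higher on RF8, and the median ran from -2.83 to -0.34 (-1.13 here). Of the 16, 8 were not well above background on EB-3.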
